A study of Mus musculus with 40 samples.

Results

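The 11 untreated tumours of the OTX015 experiment are the subject here, taken by their titles out of the 40 samples of the series. They were grown by injecting B16F10 cells, a mouse skin melanoma line, under the skin of C57black6J mice that were 8 weeks old. These animals were the controls of an experiment with OTX015, an inhibitor of BET bromodomain proteins given by mouth, and their tumours received no drug according to the labels. Set beside them were 10 tumours of OTX015-treated mice, 5 untreated and 6 treated tumours of a second experiment with guadecitabine, a DNA methylation inhibitor given by intraperitoneal injection, and 4 control cultures of B16F10 cells. All tumours carry the same transplanted line in animals with an intact immune system. The labels do not say whether replicates are separate animals, whether controls received a vehicle, or how large a tumour was when it was taken, so every p-value measures the spread between these arrays. The remaining 4 samples, cultures treated with OTX015, entered no fit or comparison. They served only in choosing a probe set per gene and in the search for arrays that stand apart.

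A transplanted tumour holds host cells besides the injected line. Macrophages enter it from the blood as monocytes, take up debris and present antigen, and in mouse tumours they are often the most abundant immune cell. A pair of scores were set against every other gene. The immune score was the mean log2 signal of 4 genes: Ptprc, the CD45 phosphatase of all white blood cells, Cd68, a lysosomal protein of macrophages, Adgre1, a surface receptor of mouse macrophages, and C1qa, a chain of the complement component C1q that macrophages make. The proliferation score was the mean of Mki67, which coats chromosomes in dividing cells, and Top2a, the topoisomerase that untangles DNA before mitosis. Ccnb1, the third gene chosen for it, is not analysed here, because none of the probe sets used named it alone.

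Signals are deposited RMA values on the log2 scale. Of 17097 genes, 8695 had a mean over the 11 arrays above a background level of 4.70, the 95th percentile of olfactory and vomeronasal receptor probe sets. The melanoma label held in all 11 arrays. Pmel, a pigment granule protein, ran from 11.87 to 12.24 with a median of 12.11, Dct from 12.45 to 12.78 with a median of 12.61 and Mlana from 11.64 to 11.97 with a median of 11.84. Markers of other cells were mixed. Of the measured list genes 9 of 25 for fibroblasts and matrix, 7 of 20 for endothelium and pericytes, 4 of 10 for fat cells and 3 of 23 for T and NK cells lay above background. Flt1 of endothelium ran from 5.02 to 5.94 with a median of 5.28, Fabp4 of fat cells and some macrophages from 5.04 to 7.65 with a median of 6.62 and Cd3e of T cells from 6.26 to 7.13 with a median of 6.43. Other defining markers of the same cells stayed below background in all 11 arrays, with Pecam1 of endothelium reaching 3.68, Adipoq of fat cells 3.03, Col1a1 of fibroblasts 3.73 and Cd8a of T cells 3.96. Krt14 of keratinocytes reached 3.73. Haemoglobin Hba-a1 ran from 12.59 to 12.97 with a median of 12.75. In tissue RNA, fewer cells of a type and less RNA per cell cannot be told apart.

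The arrays differed in one technical respect that bears on most results. Array spread, the SD of log2 signal over all probe sets of an array, lay between 1.80 and 2.03, and replicates 9 (1.85) and 11 (1.80) were lowest. Array medians ran from 3.89 in replicate 1, the array of widest spread, to 4.08 in replicate 11. Correlations between arrays over all probe sets ran from 0.962 (replicates 1 and 11) to 0.997 (replicates 1 and 3). Results are therefore given on the deposited values and again after quantile normalization, which forces the 11 arrays to 1 distribution, with array spread as a term in the fit, and without replicates 9 and 11.

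Genes of myeloid cells, early response transcription factors and red cell precursors varied most between these tumours. The median SD of a gene above background was 0.26, and 540 genes reached an SD of 0.5 (6.21% of those above background). In the 4 control cultures the median SD of the same genes was 0.14, in the 5 untreated tumours of the guadecitabine experiment 0.22 in the 10 OTX015-treated tumours 0.22 and in the 6 guadecitabine-treated tumours 0.35, the only group of these above the 11 tumours. The 24 named genes of largest SD ended with Mrc1 (0.91), and the next, Ampd2, had 0.90. All 24 lay below background in each of the 4 control cultures, against 4.32% of all genes above background in the tumours. Their median SD in those cultures was 0.14. After quantile normalization 23 of the 24 were again among the 24 of largest SD, and without replicates 9 and 11, 18 were. The count of genes with an SD of at least 0.5 fell to 231 without replicates 9 and 11, and to 317 without replicate 11 alone. By the median absolute deviation, which ignores a few extreme arrays, 12 were.

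**Figure D1:**
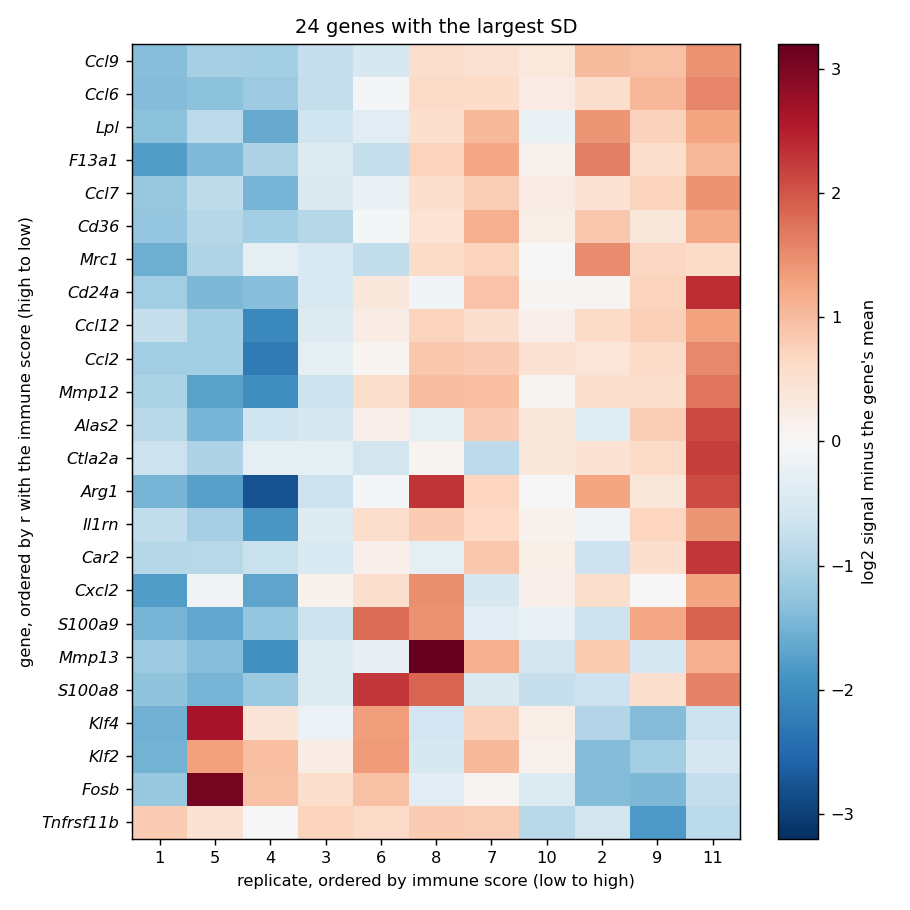
Heat map of the 24 named genes with the largest SD (rows, ordered by correlation with the immune score) in the 11 untreated tumours (columns, ordered by immune score); colour is log2 signal minus the gene's mean. Most rows run from blue to red with the score, while Fosb and Klf4 peak in replicate 5, Klf2 in replicates 5 and 6, S100a8 and S100a9 in replicates 6, 8 and 11, and Mmp13 in replicate 8.

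Arg1 had the largest SD (1.59). It encodes arginase, which depletes arginine and is made by alternatively activated and tumour macrophages, and its signal ran from 3.60 to 8.68 with a median of 6.41, a 33.8-fold range. Replicates 8 (8.68) and 11 (8.47) were highest and replicate 4 (3.60) lowest. Mmp13, a collagenase, ran from 2.80 to 7.92 with a median of 4.31 and was likewise highest in replicate 8 (7.92) and lowest in replicate 4. Across the arrays Arg1 and Mmp13 moved together (r = 0.910, 0.893 after quantile normalization, 11 arrays, a description). Cxcl2, a chemokine that draws neutrophils, followed Arg1 (r = 0.841). Mmp12, the macrophage elastase, spanned 5.98 to 9.66 with a median of 8.48 and peaked in replicate 11.

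S100a8 and S100a9 form calprotectin, an abundant protein pair of neutrophils and young monocytes. S100a9 ran from 4.67 to 8.22 with a median of 5.97, with replicates 11 (8.22), 6 (8.14), 8 (7.78) and 9 (7.58) above the other 7, of which the highest was 6.14. S100a8 ran from 4.03 to 7.77 with a median of 5.05 and separated the same 4 arrays, with replicate 9 at 6.06 and the next at 5.08. The correlation of the pair was 0.961. Neither was called with the immune score (adjusted p = 0.109 and 0.327, limma). Of the neutrophil list 13 genes were measured and 5 lay above background. Cxcr2, the chemokine receptor that defines mature neutrophils, stayed at or near background, from 3.59 to 4.72 with a median of 3.81. Csf3r, a further neutrophil gene, ran higher, from 4.59 to 5.42, and lay above background in most arrays. The cell source of S100a8 and S100a9 was not tested.

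Chemokines, most of which attract monocytes, made up a further block. Ccl2, the main ligand of the monocyte receptor CCR2, ran from 4.70 to 8.50 with a median of 7.36, Ccl7 from 5.05 to 7.99 with a median of 6.80, Ccl12 from 5.19 to 8.56 with a median of 7.50, Ccl6 from 6.39 to 9.34 with a median of 8.03 and Ccl9 from 6.95 to 9.77 with a median of 8.66. Replicate 11 was highest for all 5, and either replicate 1 or replicate 4 was lowest. Some genes of macrophages peaked in another array. Mrc1, the mannose receptor, was highest in replicate 2 (8.93) and lowest in replicate 1 (5.86), as was F13a1, the clotting factor XIII subunit of resident-type macrophages (8.12 and 4.73). Lpl, lipoprotein lipase, also peaked in replicate 2 (8.61). Il1rn, the interleukin 1 receptor antagonist, ran from 4.48 to 7.76 with a median of 6.45, and Cd36, a fatty acid and lipoprotein receptor, from 5.06 to 7.50 with a median of 6.47, both highest in replicate 11.

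Red cell precursor genes stood out in 1 array. Alas2, the first enzyme of haem synthesis in erythroid cells, ran from 6.54 to 10.14 with a median of 7.72, with replicate 11 (10.14) well above the next, replicate 7 (8.84). Car2, the carbonic anhydrase of red cells, reached 8.21 there against 6.80 in replicate 7, and Cd24a, a surface protein that erythroid precursors share with other cells, 9.01 against 7.56. Slc4a1, the band 3 anion exchanger of the red cell membrane, reached 6.78 there and had a median of 4.51. Alas2 correlated with Car2 at 0.969, or 0.936 without replicates 9 and 11. Ctla2a, a protease inhibitor, was also highest in replicate 11 (7.74, next 6.13). Tnfrsf11b, the decoy receptor osteoprotegerin, was low in replicates 9, 10, 11 and 2, at 3.99 to 5.26, and lay between 5.83 and 6.65 in the other 7.

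The immediate early genes varied widely and were called with neither score. These genes are transcribed within minutes of serum, stretch, heat or tissue handling and need no new protein. Fosb, a subunit of the AP-1 transcription factor, ran from 5.06 to 9.56 with a median of 6.16, with replicate 5 highest (9.56) and replicates 9, 2 and 1 lowest (5.06, 5.10 and 5.28). Klf4 and Klf2, zinc finger factors, were highest in replicates 4, 5, 6 and 7, which were also among the 5 highest for Fosb. Klf4 was 9.05 in replicate 5, 7.75 in 6, 7.15 in 7 and 6.83 in 4, against 4.89 in replicate 1. Klf2 lay between 6.97 and 7.35 in those 4 arrays and at 6.24 or less in the other 7. Fosb correlated with Klf4 at 0.928 and Klf4 with Klf2 at 0.911, and at 0.927 and 0.900 after quantile normalization. Jun ran from 8.57 to 10.60 with a median of 9.88 and Ccn1, a matrix protein induced by stretch, from 6.93 to 9.38 with a median of 8.38, both highest in replicate 5 and lowest in replicate 9. Of the immediate early list 20 of 22 measured genes lay above background, with a median SD of 0.55 against 0.26 over all genes above background. The mean of these 20 genes ran from 7.05 in replicate 1 to 8.49 in replicate 5. None of the 22 was called with either score in the limma fits described next, on the deposited values, after quantile normalization, with array spread as a term or without replicates 9 and 11.

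The windows around the start sites of Fosb, Klf2 and Klf4 are printed because these genes moved together. They are RefSeq windows on build GRCm38.p6, 250 bases before to 50 after the start, at chr7:19309996-19310295 (minus strand), chr8:72318812-72319111 (plus) and chr4:55532426-55532725 (minus). Capitals mark TGACG or its reverse complement CGTCA, the half-site of the cAMP response element.
Fosb: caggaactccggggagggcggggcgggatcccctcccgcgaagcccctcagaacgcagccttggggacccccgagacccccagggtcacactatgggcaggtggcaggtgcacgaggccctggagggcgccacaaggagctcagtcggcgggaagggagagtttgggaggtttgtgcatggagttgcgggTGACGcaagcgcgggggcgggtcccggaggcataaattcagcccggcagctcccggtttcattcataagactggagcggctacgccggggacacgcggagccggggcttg
Klf2: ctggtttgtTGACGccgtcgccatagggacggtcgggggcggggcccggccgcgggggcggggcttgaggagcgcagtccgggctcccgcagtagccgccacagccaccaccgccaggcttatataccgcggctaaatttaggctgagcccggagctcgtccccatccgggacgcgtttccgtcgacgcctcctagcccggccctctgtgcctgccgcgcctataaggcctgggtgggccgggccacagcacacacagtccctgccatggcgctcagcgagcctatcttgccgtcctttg
Klf4: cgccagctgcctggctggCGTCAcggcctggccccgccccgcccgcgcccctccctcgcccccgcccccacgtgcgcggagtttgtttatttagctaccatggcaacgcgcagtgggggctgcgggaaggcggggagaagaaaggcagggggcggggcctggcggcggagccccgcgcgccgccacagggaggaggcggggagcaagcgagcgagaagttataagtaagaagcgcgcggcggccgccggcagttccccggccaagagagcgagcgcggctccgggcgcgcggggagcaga
Searched on both strands, the motif was in 12 of 21 immediate early genes with a window (57.1%) and in 20.8% of all 32851 windows. The list share counts genes and the other share counts windows. Some genes have several windows, so these shares are not strictly comparable. A match is a description of the letters and not a binding site.

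The immune score ran from 6.41 in replicate 1 to 8.12 in replicate 11, a range of 1.71 log2 units, with no gap that splits the arrays. Replicates 11, 9 (8.07) and 2 (8.05) were highest and replicates 1, 5 (6.66) and 4 (6.71) lowest. In the control cultures it lay between 3.46 and 3.74, in the untreated tumours of the guadecitabine experiment between 6.06 and 6.60. Of its genes, Ptprc ran from 5.79 to 8.32 with a median of 7.01, Cd68 from 6.50 to 8.63 with a median of 7.90, Adgre1 from 5.30 to 6.94 with a median of 6.05 and C1qa from 7.14 to 8.91 with a median of 8.22. Their pairwise correlations lay between 0.612 and 0.905, and between 0.728 and 0.936 after quantile normalization. Ptprc was lowest in replicate 4 (5.79), whereas the other 3 were lowest in replicate 1.

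The proliferation score varied far less, from 8.02 in replicate 11 to 8.77 in replicate 8. Mki67 ran from 8.26 to 8.94 with a median of 8.64 and Top2a from 7.79 to 8.65 with a median of 8.47. The correlation of the pair was 0.560, and -0.0112 after quantile normalization, so on that scale its genes shared no variation. Replicate 4 had the median Mki67 (8.64) and a low Top2a (7.80). In the control cultures the score lay between 7.97 and 8.74.

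**Figure D2:**
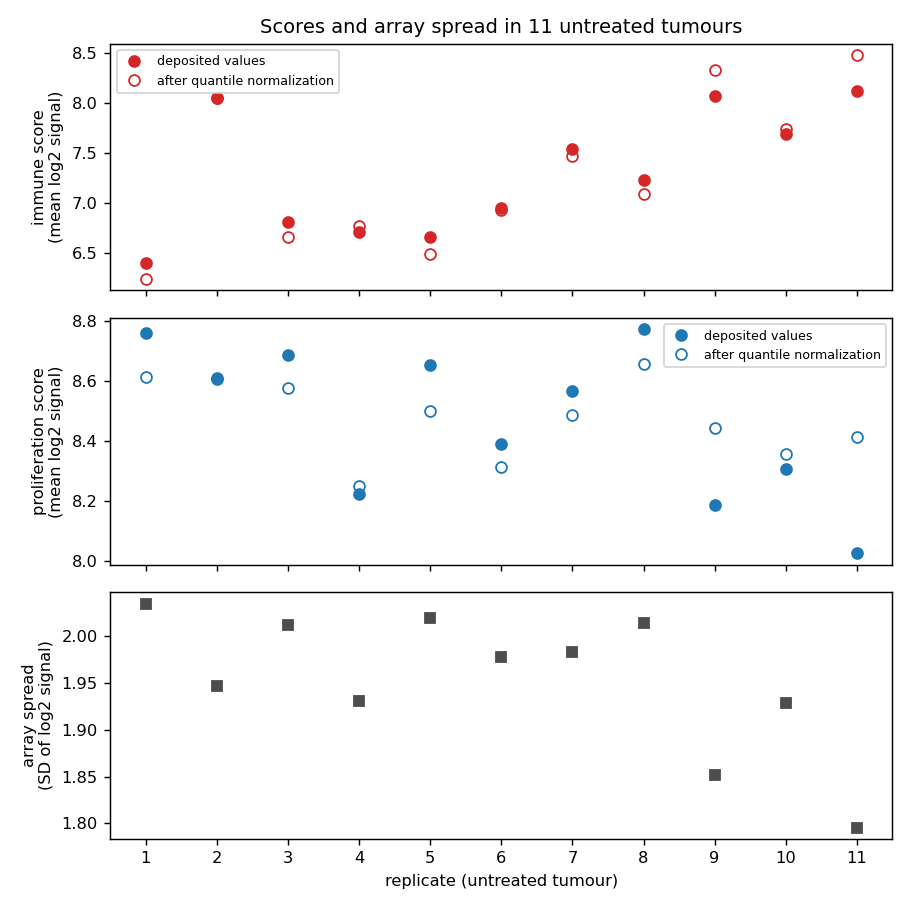
Immune score, proliferation score (mean log2 signal of their genes) and array spread (SD of log2 signal over probe sets) in each of the 11 untreated tumours; filled circles are deposited values and open circles quantile-normalized ones. The immune score spans 1.71 units and the proliferation score 0.75, and the lowest proliferation score and the lowest array spread are both in replicate 11.

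Tumours with a higher immune score tended to a lower proliferation score, but the relation did not pass the test. Pearson's r was -0.526 (permutation p = 0.0990, two-sided) and Spearman's rho -0.600 (permutation p = 0.0572), n = 11. Without replicates 9 and 11, the arrays farthest from the median of the immune score and also those of lowest spread, r was -0.148, and after quantile normalization -0.148. The relation rests on those arrays. Leaving out replicate 4 gave r = -0.693 (permutation p = 0.0294) and leaving out replicate 2 gave -0.663 (permutation p = 0.0416).

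Array spread followed both scores. Of 10 relations between 5 technical measures and the scores, array spread against the proliferation score was strongest, with r = 0.915 (permutation p = 4.00e-05, 0.0004 after Benjamini-Hochberg adjustment) and rho = 0.918 (permutation p = 0.0002). Without replicates 9 and 11 it was 0.853. Against the immune score r was -0.760 (permutation p = 0.00457, adjusted 0.0152), rho -0.800 (permutation p = 0.00472), and -0.578 without the same arrays. Quantile normalization did not part the immune score from array spread, with r = -0.851 (permutation p = 0.00061, outside the 10 relations) and rho = -0.836 (permutation p = 0.00241). For the proliferation score on that scale r was 0.468 (permutation p = 0.149) and rho 0.664 (permutation p = 0.0301). Array mean was related to the proliferation score (r = 0.834, rho = 0.791, permutation p = 0.00098 and 0.00517, adjusted 0.00490 and 0.0172). The other 7 relations, with array mean for the immune score, the 3′ to 5′ differences of Actb and Gapdh, and the mean of Malat1, Neat1 and Meg3, had adjusted permutation p of at least 0.133.

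Genes of macrophages and antigen presentation rose with the immune score. On the deposited values limma called 3332 of 17093 genes (19.5%), of which 1133 rose (6.63% of those tested) and 2199 fell (12.9%). Of the 31 measured genes of the macrophage list, none of which is in the score, 22 rose and none fell, and their median correlation with the score was 0.871, against -0.0242 over all genes. With array spread as a term 8 of them rose, and without replicates 9 and 11 12. Tyrobp, the adaptor DAP12 that relays signals of myeloid receptors, ran from 6.95 to 9.18 with a median of 8.01 and rose by 1.14 ± 0.08 log2 units per unit of the score (slope ± SE, n = 11, limma adjusted p = 2.24e-05). Fcer1g, a further signalling adaptor, rose by 1.09 ± 0.10 (limma adjusted p = 0.000126). Mpeg1, the pore-forming perforin-2 of macrophages, ran from 7.45 to 9.22 with a median of 8.27 with a slope of 0.94 ± 0.10. A slope near 1 means that the gene rose as steeply as the score itself.

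Antigen presentation by MHC class II rose alongside. Of 16 measured genes of that list 7 rose and none fell. There were 4 with array spread as a term and 5 without replicates 9 and 11. H2-Aa, which encodes an alpha chain of the class II molecule, ran from 7.18 to 9.39 with a median of 8.01 and its partner H2-Ab1 from 5.81 to 8.17 with a median of 6.86. Cd74, the invariant chain that guards the groove until a peptide is loaded, ran from 6.48 to 8.33 with a median of 7.19. All 3 were highest in replicate 9, and their slopes were 1.21 ± 0.14, 1.21 ± 0.11 and 1.02 ± 0.10 (limma adjusted p between 0.000126 and 0.000331). Of 13 measured MHC class I genes 1 rose, H2-M3, while H2-K1 was at 9.36 to 10.23 with a median of 9.93 (limma adjusted p = 0.0835, and 0.0130 after quantile normalization). Complement genes C3ar1, the receptor for C3a, and Cfp, properdin, rose with slopes of 0.93 ± 0.07 and 0.96 ± 0.09.

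Of the 10 genes with the steepest slopes Arg1 came first, and several of the others encode secreted proteins. Arg1 had a slope of 1.87 ± 0.47 (limma adjusted p = 0.0205), F13a1 1.61 ± 0.24 (0.00204), Ccl9 1.51 ± 0.12 (4.22e-05), Lpl 1.49 ± 0.22 (0.00198) and Ccl6 1.49 ± 0.18 (0.0005). Pf4, the chemokine CXCL4 of platelets and some macrophages, ran from 6.99 to 9.41 with a median of 8.70 with a slope of 1.31 ± 0.10 (2.70e-05). Mmp12, Cd24a, Ccl2 and Trpt1, a tRNA phosphotransferase, completed the 10 with slopes between 1.30 and 1.45. Of 21 measured chemokines 11 rose and none fell, 4 rose with array spread as a term and 4 without replicates 9 and 11. Of the 24 genes with the largest SD 17 were called with the immune score, on the deposited values and after quantile normalization alike, against the 19.5% of all genes. The 7 others were Mmp13, S100a8, S100a9, Fosb, Klf4, Klf2 and Cxcl2, with correlations between -0.589 and 0.571. Variable genes as a whole were called more often than all genes, and mostly as falling. Of the 540 above background with an SD of at least 0.5, 100 rose and 200 fell with the immune score.

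Windows of Pf4, F13a1 and Mmp12, 3 of the 10 steepest genes, are shown with the core of the site of PU.1, a transcription factor of the myeloid lineage. They lie at chr5:90772185-90772484 (plus strand), chr13:37050195-37050494 (minus) and chr9:7344147-7344446 (plus) on GRCm38.p6. Capitals mark GAGGAAG or its reverse complement CTTCCTC.
Pf4: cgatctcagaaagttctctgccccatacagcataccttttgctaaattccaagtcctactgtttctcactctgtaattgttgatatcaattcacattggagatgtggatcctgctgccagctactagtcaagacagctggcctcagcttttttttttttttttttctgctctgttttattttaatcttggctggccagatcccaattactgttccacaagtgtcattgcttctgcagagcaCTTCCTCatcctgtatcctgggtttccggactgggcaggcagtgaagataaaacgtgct
F13a1: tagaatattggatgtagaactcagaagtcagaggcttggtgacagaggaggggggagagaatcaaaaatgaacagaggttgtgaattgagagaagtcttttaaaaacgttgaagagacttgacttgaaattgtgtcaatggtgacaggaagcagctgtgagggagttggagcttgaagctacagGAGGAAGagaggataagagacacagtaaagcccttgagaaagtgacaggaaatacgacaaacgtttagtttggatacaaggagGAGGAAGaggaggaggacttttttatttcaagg
Mmp12: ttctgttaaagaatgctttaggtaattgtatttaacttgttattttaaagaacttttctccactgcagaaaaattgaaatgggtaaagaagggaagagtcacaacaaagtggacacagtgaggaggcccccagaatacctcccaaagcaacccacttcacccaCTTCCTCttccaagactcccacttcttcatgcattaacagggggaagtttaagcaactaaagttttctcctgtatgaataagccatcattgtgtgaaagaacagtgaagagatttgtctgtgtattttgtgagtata
The motif was in 3 of the 6 steepest genes that have a window, in 7 of 24 macrophage genes (29.2%), in 68 of 316 genes above background that rose with the score (21.5%) and in 13.6% of all windows. The share of all windows counts windows while the other shares count genes, and F13a1 and Mmp12 each had 2 windows. This motif and the others searched were chosen after the values had been seen.

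Other immune and stromal lists followed in part. Of the T and NK cell list 3 of 23 measured genes lay above background, and 8 of the 23 rose. On quantile-normalized values 6 rose and 2 fell. Cd3e, whose values are given above, is a chain of the T cell receptor complex, while Cd3d and Cd3g, which belong to the same complex, reached no more than 4.53 and 3.87. Of the fibroblast and matrix list 9 of 25 rose, among them Igf1, a growth factor that macrophages also make (4.75 to 6.00 with a median of 5.65, slope 0.64 ± 0.08), and Dcn, the matrix proteoglycan decorin (4.44 to 5.51 with a median of 5.02, slope 0.47 ± 0.08). Of the erythroid list 3 of 5 rose, namely Alas2, Slc4a1 and Bpgm. Without replicates 9 and 11 none of these 3 was called (limma adjusted p of 0.303 to 0.359). Of the fibroblast and matrix genes 1 rose with array spread as a term and 1 without replicates 9 and 11. For the T and NK cell list and for the immune checkpoint list limma called 0 under either setting. Beside these counts, 6.63% of all genes rose on the deposited values, and so did 6 of the 78 olfactory and vomeronasal receptor genes that mark background. The median correlation of these 78 genes with the score was 0.351, against -0.0242 over all genes, and 0.0852 after quantile normalization. Genes near background thus tended upward with the score on the deposited values. Of the immune checkpoint list 6 of 21 rose. Tnfrsf4, the costimulatory receptor OX40, ran from 5.89 to 7.15 with a median of 6.25 with a slope of 0.52 ± 0.11. Of the interferon gamma list 4 of 27 rose, 11 after quantile normalization, 1 with array spread as a term and 0 without replicates 9 and 11.

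The genes that fell with the immune score were less settled. The 10 steepest were Lrif1, Tnfrsf11b, Npnt, Esco2, Lss, Rnpc3, Arrdc3, Pkp2, Cmc4 and Tob2, with slopes from -1.11 to -0.87. Lss, which closes the sterol ring in cholesterol synthesis, ran from 4.19 to 6.70 with a median of 5.38 and had a slope of -1.02 ± 0.17 (limma adjusted p = 0.00378). Of 17 measured genes of cholesterol synthesis 10 fell, 4 after quantile normalization. Of 29 genes of oxidative phosphorylation 11 fell, 2 after quantile normalization. For the G2/M list the counts were 15 and 6 of 34. No gene of these 3 lists was called as falling with array spread as a term or without replicates 9 and 11. The median correlation with the score of all genes above background was -0.489 on the deposited values and -0.0798 after quantile normalization, and this common shift stands beside all the falling counts. Melanocyte genes had a median correlation of -0.346, and -0.163 after quantile normalization. Of 24 measured genes on that list 1 rose and 1, Melk, a kinase known from dividing cells, fell. Ednrb, the endothelin receptor of pigment cell precursors, was the one that rose. Pmel had a correlation of -0.636 and Mitf, the master regulator of pigment cells, -0.0676.

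The balance of rising and falling genes moved with the settings. After quantile normalization 2688 genes were called (15.7%), with 1365 rising (7.99%) and 1323 falling (7.74%), so the share of rising genes went from 34.0% to 50.8% of the calls. With array spread as a term 61 genes rose and 3 fell, and without replicates 9 and 11, 84 rose and 18 fell. The genes called on the deposited values, after quantile normalization, with array spread as a term and without replicates 9 and 11 numbered 55, of which 53 rose. They held 8 of the macrophage list, 4 of the MHC class II list and 3 of the chemokine list. Among them were Tyrobp, Fcer1g, Mpeg1, Cd84, Mrc1, C3ar1, Cfp, H2-Aa, H2-Ab1, H2-Eb1, Cd74, Ccl6, Ccl9, Pf4, F13a1, Lpl, Cd36, Igf1 and Trpt1. Leaving out 1 array gave between 749 (without replicate 11) and 5367 calls (without replicate 4). There were 973 without replicate 9, 1535 without replicate 5, 1563 without replicate 1, 1846 without replicate 3 and 5035 without replicate 2. The 2 falling genes among the 55 were Armt1 and Slc12a2, an ion cotransporter, both named after their values had been seen.

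**Figure D3:**
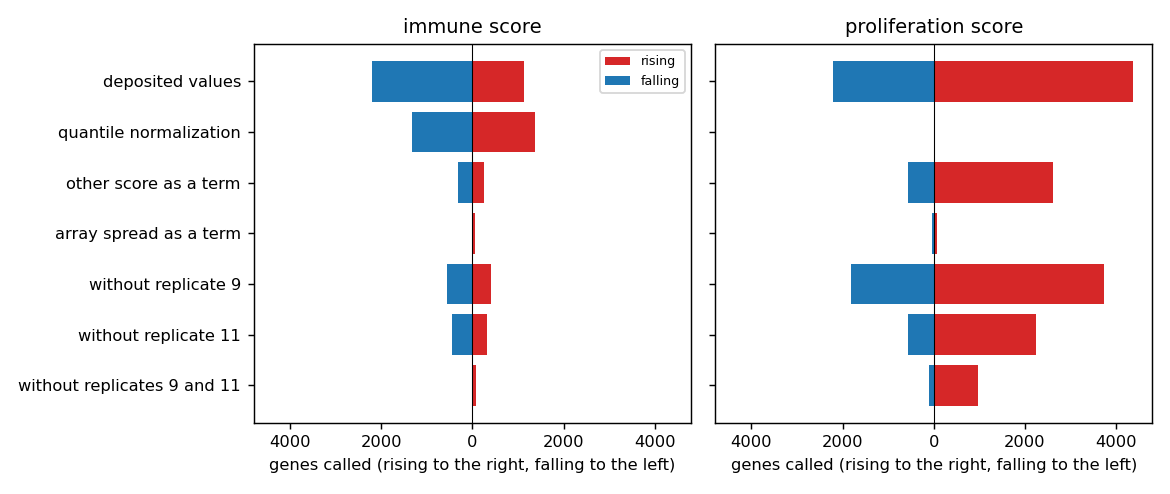
Number of genes called by limma at an adjusted p under 0.05 as rising (right) or falling (left) with the immune score and the proliferation score, under 7 settings. For the immune score the falling bar shrinks from 2199 to 3 with array spread as a term, and for the proliferation score no gene is called after quantile normalization.

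Xist followed the immune score closely. It is the noncoding RNA that coats the inactive X chromosome in female cells, and it was not used to build the score. In the 4 control cultures it lay between 4.51 and 5.17, close to background. In the 11 untreated tumours it ran from 6.13 to 7.57 with a median of 6.47, highest in replicates 9 (7.57), 11 (7.37) and 7 (6.97) and lowest in replicate 1. No tumour overlapped the cultures. Its slope on the immune score was 0.67 ± 0.10 (limma adjusted p = 0.00173) and its correlation 0.911, or 0.937 after quantile normalization. Without replicates 9 and 11 the slope was 0.48 (limma adjusted p = 0.0375), and with array spread as a term 0.47 (limma adjusted p = 0.221). Y-linked Uty, Kdm5d and Eif2s3y stayed below background, at no more than 3.63, 3.38 and 2.56. The relation was not called in the guadecitabine experiment (slope -0.25, limma adjusted p = 0.763). Its 5 untreated tumours had Xist between 4.92 and 5.17 (SD 0.096) and its 6 treated ones between 6.23 and 9.36 (SD 1.11). Most of the variation of Xist within groups in that fit therefore came from treated tumours. The relation was not called in the OTX015-treated tumours either (slope 0.19).

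**Figure D4:**
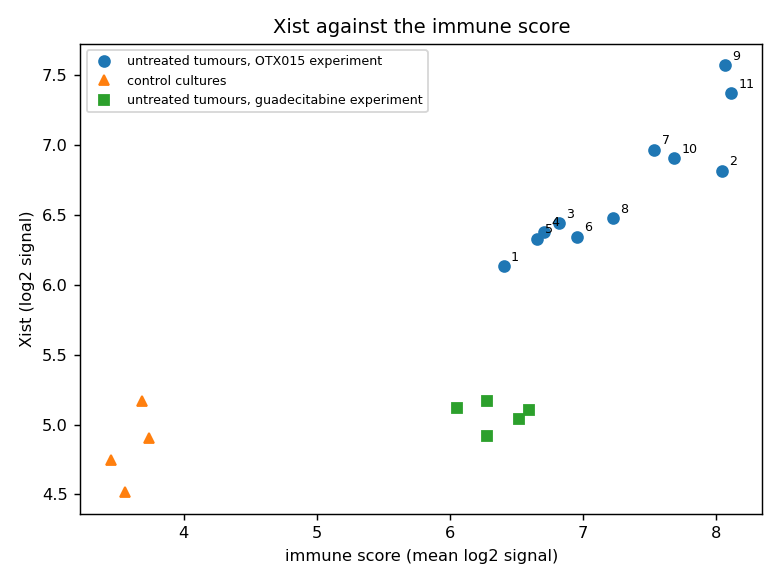
Xist (log2 signal) against the immune score (mean log2 signal of 4 genes) in the 11 untreated tumours of the OTX015 experiment (circles, numbered by replicate), the 4 control cultures (triangles) and the 5 untreated tumours of the guadecitabine experiment (squares). In the 11 tumours Xist rises with the score from 6.13 to 7.57, while the squares stay between 4.92 and 5.17.

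Genes of DNA replication and ribosome production rose with the proliferation score on the deposited values. limma called 6581 of 17095 genes (38.5%), 4380 rising (25.6%) and 2201 falling (12.9%). Of 33 measured genes of G1/S and replication 28 rose and none fell. Pola1, the catalytic subunit of the polymerase that starts each new DNA strand, ran from 5.84 to 7.31 with a median of 6.65 with a slope of 2.04 ± 0.19 (limma adjusted p = 6.32e-05). Mcm2, a subunit of the replicative helicase, ran from 7.61 to 8.85 with a median of 8.49, and Ccne2, a cyclin of S-phase entry, from 4.25 to 6.42 with a median of 5.37 with a slope of 2.77 ± 0.26. Of 32 genes of MYC and ribosome biogenesis 25 rose, such as Ddx21, an RNA helicase of the nucleolus (6.03 to 7.50 with a median of 6.93), and of 34 G2/M genes 19 rose, such as Cenpe, the kinesin of the kinetochore (6.35 to 7.33 with a median of 6.96). In the G1/S, MYC and G2/M lists 33, 30 and 33 of the measured genes lay above background, where 4056 of 8695 genes rose. The share of G2/M genes that rose was near that of all genes above background. Of 24 melanocyte genes, 21 of them above background, 12 rose, which was also near that share. They included Kit, the stem cell factor receptor (4.83 to 7.04 with a median of 6.58, lowest in replicate 4), and Pax3, a regulator of Mitf (8.33 to 9.56 with a median of 9.19, also lowest in replicate 4).

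Mki67 and Top2a share the element TTTGAA, the core of the cell cycle homology region of genes expressed before mitosis. Their windows lie at chr7:135716330-135716629 and chr11:99024140-99024439 (both minus strand, GRCm38.p6) and are shown for comparison with the pair's weak correlation above. Capitals mark TTTGAA or its reverse complement TTCAAA.
Mki67: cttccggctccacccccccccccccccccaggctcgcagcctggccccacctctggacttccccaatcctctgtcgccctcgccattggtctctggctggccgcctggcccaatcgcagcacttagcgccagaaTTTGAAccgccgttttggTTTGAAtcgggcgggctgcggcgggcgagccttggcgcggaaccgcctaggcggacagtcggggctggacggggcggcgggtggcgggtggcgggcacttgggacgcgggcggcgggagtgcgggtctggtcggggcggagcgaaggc
Top2a: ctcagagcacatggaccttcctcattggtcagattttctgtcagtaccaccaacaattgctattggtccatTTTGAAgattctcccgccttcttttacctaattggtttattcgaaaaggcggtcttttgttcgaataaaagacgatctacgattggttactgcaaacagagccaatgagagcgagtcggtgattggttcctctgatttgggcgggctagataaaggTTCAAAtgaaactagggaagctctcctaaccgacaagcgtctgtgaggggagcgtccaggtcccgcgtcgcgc
The motif was in 21 of 29 G2/M genes with a window (72.4%) and in 17.9% of all windows. Here again a share of genes stands beside a share of windows.

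These calls moved with array spread. The median correlation with array spread was 0.684 over all genes above background, 0.799 over the G1/S and replication list and 0.830 over the G2/M list. Of the genes above background 4056 rose and 537 fell with the score. The median correlation with the proliferation score went after quantile normalization from 0.669 to -0.0907 for the G2/M list, which lost its direction. It went from 0.848 to 0.488 for G1/S and replication, and from 0.610 to -0.0310 for all genes above background. After quantile normalization no gene was called (0%), although 2049 had an unadjusted limma p under 0.05. With array spread as a term 68 rose and 32 fell, and without replicates 9 and 11, 961 rose and 101 fell. The score without Top2a gave 1805 calls, and leaving out 1 array gave 2818 (without replicate 11) to 7644 (without replicate 4). The 10 steepest rising genes, Ints2, Ampd2, Lrif1, Esco2, Dzip3, Ccne2, Tasor2, Taf4, Qtrt2 and Caap1, had slopes of 2.65 to 3.16, against 1.19 for Cenpe and 1.56 for Mcm2. Falling genes included Alas2, Car2, Slc4a1, C1qb and Tyrobp, which are erythroid and macrophage genes, with slopes of -2.71 to -1.74. Of the 24 genes with the largest SD 4 were called with the proliferation score, Alas2, Car2, Ctla2a and Tnfrsf11b. Among the 540 genes above background with an SD of at least 0.5, 342 rose and 27 fell with it on the deposited values. 

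The same fits in other tumours gave some of the macrophage genes again, but few of the other genes, and many slopes were reversed. In the guadecitabine experiment, with treatment as a term, 428 genes were called with the immune score (2.5%), and in the 10 OTX015-treated tumours 34 (0.199%). Of the 1133 genes that rose in the 11 untreated tumours 62 were called in the same direction in the first and 32 in the second, out of 385 and 32 rising calls there, and 9 were called as falling in the guadecitabine experiment. In that experiment 333 of the 1133 rising and 265 of the 2199 falling genes had a slope of the same direction, called or not. Most of both sets thus went the opposite way there. With array spread as a term in that experiment 759 and 1212 kept the direction. In OTX015-treated tumours, without that term, 772 and 868 kept it. Of the 2199 that fell none was called as falling in either, and 81 were called as rising in the guadecitabine experiment. Of the macrophage list 12 and 9 genes rose. Pf4 had slopes of 1.31 here, 1.55 in the guadecitabine experiment (limma adjusted p = 0.00232) and 0.92 in OTX015-treated tumours (limma adjusted p = 0.187). Lpl had 1.49, 1.72 (limma adjusted p = 0.00302) and 1.39 (limma adjusted p = 0.0327). Cd24a, with 1.42 here, had 0.24 and -0.73 there, neither called. The calls in OTX015-treated tumours rested on 1 array. Without their replicate 1, whose immune score of 4.22 lay far below the other 9, limma called no gene there (472 had an unadjusted p under 0.05). The direction of slopes was kept more often without it, in 946 of the 1133 rising and 1595 of the 2199 falling genes. Differences between the slopes of these experiments were not tested.

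For the proliferation score 1976 genes were called in the guadecitabine experiment (11.6%) and 3287 in OTX015-treated tumours (19.2%). Of the 4380 rising genes 1068 and 1750 were called as rising there, and of the G2/M list 22 and 32 of 34 genes rose. Without replicate 4 of the OTX015-treated tumours, whose proliferation score of 6.82 stood far below the others, 1 gene was called in place of 3287, while 4099 of the 4380 rising genes kept a slope of the same direction, against 4058 with it. With array spread as a term 2210 of the 4380 kept the direction in the guadecitabine experiment, against 3918 without the term. In OTX015-treated tumours 2088 kept it with the term. Of the 2201 falling genes 1268 and 1090 kept it. Over all genes, 46.2% and 49.1% of slopes were positive in these 2 fits. On the deposited values macrophage genes had opposite directions in the 11 tumours and the guadecitabine experiment: 12 fell with the proliferation score here, whereas 14 rose and none fell in the guadecitabine experiment. The 12 calls were lost here after quantile normalization, with array spread as a term and without replicates 9 and 11, where limma called 0, 0 and 0. C1qb, a chain of C1q, had a slope of -1.95 ± 0.49 here and 1.55 there (limma adjusted p = 0.00861 and 0.00594), and its slope here was 0.25 with array spread as a term. With array spread as a term limma called no gene in the guadecitabine experiment for either score (555 and 2005 genes had an unadjusted p under 0.05), and 78 and 14 were called in OTX015-treated tumours for the immune and the proliferation score.

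By list, 3 groups of programmes varied together without drug. Each list was summed up by the mean of its members above background in each array, and correlations over the 11 arrays are a description with no p, since arrays share their spread and lists were chosen with earlier results known. In the first group the macrophage mean ran from 6.79 to 8.12 and correlated with MHC class II at 0.941 (rho 0.945), with chemokines at 0.885 (rho 0.855), with the fibroblast and matrix list at 0.887 (rho 0.855) and with the erythroid list at 0.771 (rho 0.845). After quantile normalization these were 0.967, 0.915, 0.931 and 0.844, and on that scale without replicates 9 and 11 they were 0.956, 0.848, 0.856 and 0.726. Further lists were as close to the macrophage mean: complement at 0.934, adipocyte at 0.931 (Fabp4, Lpl, Retn and Scd1 above background), dendritic cell at 0.908 and endothelial and pericyte at 0.899. After quantile normalization these were 0.977, 0.963, 0.922 and 0.907. Fewer single genes followed. With the immune score 6 of 13 measured complement, 2 of 10 adipocyte, 5 of 9 dendritic cell and 2 of 20 endothelial and pericyte genes rose. Another 2 adipocyte genes fell, and 6.63% of all genes rose. With array spread as a term 2, 1, 0 and 0 rose, and without replicates 9 and 11 likewise 2, 1, 0 and 0. The endothelial and pericyte mean had an SD of only 0.0946. Cholesterol synthesis ran against this group, at -0.894 with the macrophage mean and -0.804 after quantile normalization. When replicates 9 and 11 were also left out it was -0.653. This was not particular to that list, since the housekeeping list gave -0.809, -0.749 and -0.684 in the same settings. Oxidative phosphorylation gave -0.816 and the histone list -0.810, and -0.620 and -0.459 after quantile normalization.

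The second group joined melanocyte genes, G1/S and replication, and MYC and ribosome biogenesis. The correlation of G1/S with MYC was 0.964 (rho 0.918) and 0.886 after quantile normalization, and that of melanocyte genes with G1/S 0.964 (rho 0.936) and 0.899. On quantile-normalized values replicate 4 was lowest in all 3, at 9.13, 6.83 and 7.17 against medians of 9.49, 7.41 and 7.60. Without it the quantile-normalized correlations were 0.686 for G1/S with MYC, 0.812 for melanocyte with G1/S and 0.339 for melanocyte with MYC. Mitf was 9.22 in that array against a median of 10.59, and Kit 4.83 against 6.58. The p53 target list was highest there (7.22, median 6.87), with Ccng1, a cyclin induced by p53, at 9.58 there and 9.51 in replicate 5. G2/M did not join this group after quantile normalization: its correlation with G1/S went from 0.750 to 0.312, and with oxidative phosphorylation it was 0.932 and 0.730.

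The third group was type I interferon with interferon gamma response genes, at 0.893 (rho 0.582) and 0.927 after quantile normalization. Replicate 4 was lowest in both, at 5.87 and 5.77 against medians of 6.45 and 6.38, and without it the deposited values gave 0.608 and the quantile-normalized ones 0.875. Ifit2, an antiviral protein induced by type I interferon, ran from 5.77 to 7.06 with a median of 6.35, and Irgm1, a GTPase induced by interferon gamma, from 6.25 to 7.52 with a median of 7.14. Ifi27l2a, a further interferon-induced gene, ran from 4.88 to 6.81 with a median of 5.90 and rose with the immune score (slope 0.96 ± 0.14, limma adjusted p = 0.00181). Immediate early genes stayed outside these groups, with correlations of -0.301 with the macrophage mean, 0.00780 with G1/S and -0.484 with type I interferon, and -0.0819, -0.341 and -0.414 after quantile normalization. The neutrophil mean correlated with the macrophage mean at 0.636, and at 0.427 without replicates 9 and 11.

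**Figure D5:**
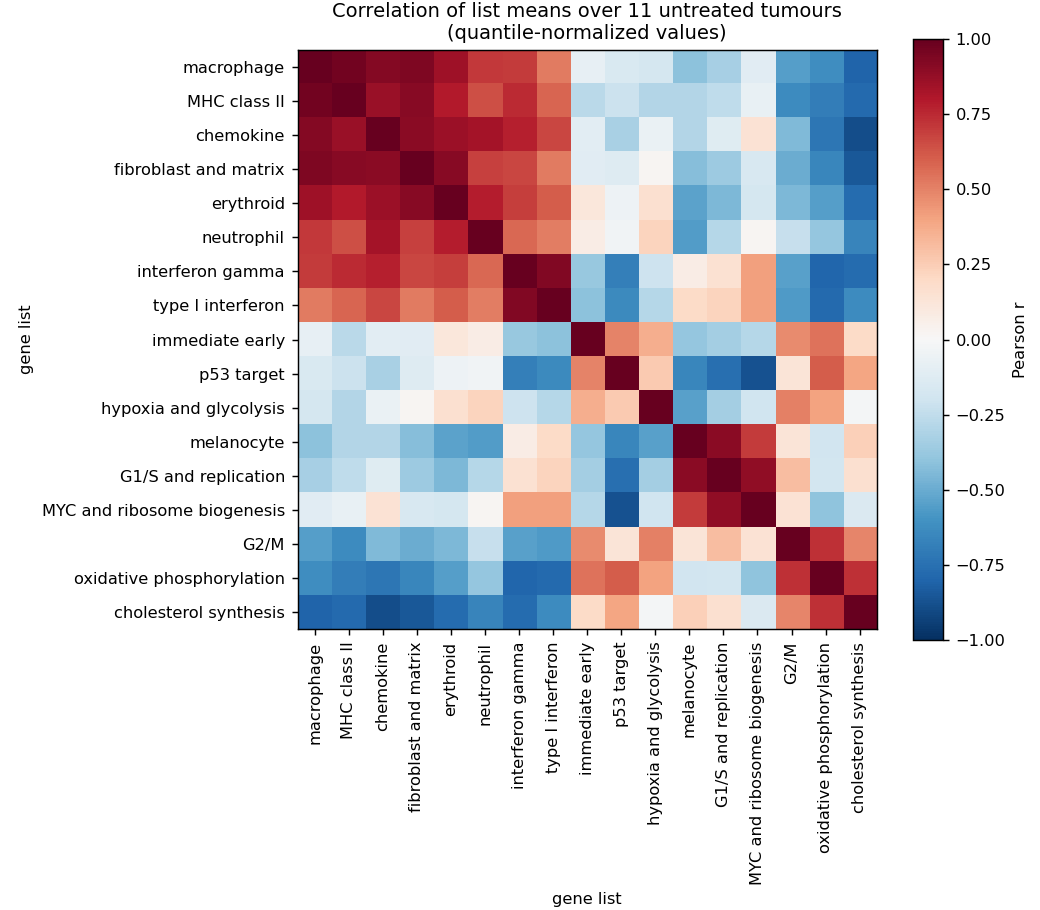
Pearson correlation (colour, -1 to 1) between the means of 17 gene lists over the 11 untreated tumours, on quantile-normalized values. Macrophage, MHC class II, chemokine, fibroblast and matrix, and erythroid lists form 1 red block, melanocyte, G1/S and MYC lists a second, and the interferon lists a further pair, with correlations of 0.517 (type I) and 0.696 (gamma) with the macrophage list.

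Over all genes above background the first principal component held 57.5% of the variance of the deposited values and correlated with array spread at -0.990. It correlated with the proliferation score at -0.899 and with the immune score at 0.794. After quantile normalization it held 47.3% and still correlated with array spread at -0.972 and with the immune score at 0.904. Its correlation with the proliferation score was then -0.361. The second component (15.1%) set replicate 4 (-0.806) apart from replicate 2 (0.447) and correlated with the proliferation score at 0.804. The leading axis of these 11 arrays therefore ran with both the immune score and array spread, and on the deposited values with the proliferation score as well.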

How the data were processed

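RNA of each sample was hybridised to an Affymetrix 3′ expression array from 500 ng of total RNA, per the labels' protocols. The authors deposited log2 values for 45141 probe sets, and the submitters' processing notes list RMA and the Transcriptome Analysis Console. The sources used here state neither versions nor which arrays were normalized together. The platform annotation named 1 gene for 28898 probe sets, several for 551 and none for 15692. Each of 17097 genes was represented by its probe set of highest mean over the 40 arrays. Arrays give no depth; their number limits the precision.

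Every gene was regressed on each score over the 11 arrays in R 4.3.3, using limma 3.58.1 (moderated linear models, two-sided, Benjamini-Hochberg over all genes, called at an adjusted p under 0.05), leaving out the score's own genes. The fits were tested on simulated data with noise drawn separately for each gene. Variation shared by many genes, as with array spread, was not simulated. Correlations of scores and technical measures used 100000 permutations. The guadecitabine experiment (5 untreated and 6 treated tumours, treatment as a term) and the 10 OTX015-treated tumours were fitted apart. Mean signal of the OTX015-treated arrays was 4.35 to 4.39 against 4.55 to 4.60 here, so no level was compared with theirs. Named were the score genes, the 24 largest SDs above background, the 10 steepest called genes per score and direction, and up to 4 per list, predicted genes left out. The members, scores and lists were chosen with earlier results of these data known; fits without replicates 9 and 11, scores from lists, array spread as a term in other tumours, and fits without an OTX015-treated array that stood apart were added after seeing the data. Promoter windows (RefSeq, GRCm38.p6) matched 132 of 181 named genes. Alternatives are given in the closing section.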

Additional observations from a re-analysis of the deposited data

Results flagged for a closer look

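Groups of 4 to 10 arrays were searched for a single array far from the rest in the immune score, the proliferation score and array spread, 15 searches in 5 groups, of which chance would flag about 5%. The 11 untreated tumours are too many for this search. Both arrays found were OTX015-treated tumours. Replicate 1 had an immune score of 4.22, and its gap to the next array was 0.573 of the group's range. Replicate 4 had a proliferation score of 6.82, with a gap of 0.629 of the range, and its array spread of 1.82 was the lowest of that group. Without replicate 1 the calls with the immune score went from 34 to 0, and without replicate 4 those with the proliferation score went from 3287 to 1 (limma).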

How the results depend on the processing

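No paired analysis was possible because every result comes from 1 group of arrays and the fits in other tumours do not set replicates of 1 group against those of another. For the immune score, calls on the deposited values (3332) became 576 with the proliferation score as a term, 64 with array spread as a term, 493 and 5567 at thresholds of 0.01 and 0.1, and 102 without replicates 9 and 11; leaving out 1 array gave 749 to 5367. The counts of the other 11 alternatives stayed within 1.5 times, which does not mean the same genes. Quantile normalization, 1 of these, gave 2688 calls and kept 1805 of the 3332. For the proliferation score, 6581 became 0 after quantile normalization, 1971 with the mean of all probe sets, 3197 with the immune score as a term, 100 with array spread as a term, 1805 without Top2a, 3280 at 0.01 and 1062 without replicates 9 and 11, with 2818 to 7644 on leaving out 1 array. With array spread as a term, 8 of the 20 named genes of this score changed sign, with slopes of Alas2 0.78, C1qa 0.40, C1qb 0.25, Car2 0.43, Ctla2a 2.89, Retnla 0.61, Slc4a1 1.16, Tyrobp 2.36. The score against score correlation ranged from -0.693 to -0.374 on leaving out 1 array. Genes with an SD of at least 0.5 (540) numbered 313 with the mean of all probe sets, 231 without replicates 9 and 11, and 317 to 649 on leaving out 1 array. In other tumours, array spread as a term changed 428 to 0 and 34 to 78 calls for the immune score, and 1976 to 0 and 3287 to 14 for the proliferation score. Leaving out the OTX015-treated array that stood apart in each score gave 0 and 1. The 20 named genes of the immune score kept direction under every alternative; 14 were no longer called with array spread as a term and 13 without replicates 9 and 11. The cause was not tested.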
